A study of Homo sapiens with 6 samples.

Results

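The 44 genes described here encode DEAD and DEAH box RNA helicases. They are the genes whose symbol begins with DDX or DHX followed by a number, among 15598 genes in the deposited count table. The interferon-linked sensors DDX58, DDX60, DDX60L and DHX58 and the double-stranded RNA helicase DHX9 were left out. The members comprise 31 DDX and 13 DHX genes. They were measured by RNA sequencing in MHCC97H, a human hepatocellular carcinoma line with high metastatic capacity, in which a short hairpin RNA against HNRNPC (shHNRNPC, 3 libraries) was set against a control hairpin (shcontrol, 3 libraries). The labels name 1 cell line and 1 knockdown group, so effects of a particular hairpin cannot be told apart from loss of HNRNPC. Nothing in the labels says that the libraries came from separate cultures, so p-values measure the spread between these libraries, which may be technical.

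DEAD and DEAH box proteins use ATP to unwind short RNA duplexes or to pull proteins off RNA. Most act at 1 particular step of an RNA's life: splicing, export, translation, decay or the assembly of ribosomes. They are named after the Walker B motif, motif II of the helicase core, where ATP hydrolysis takes place. HNRNPC is an abundant nuclear protein that binds uridine tracts in nascent transcripts and restrains the use of cryptic exons.

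Motif II was found in the longest coding reading frame of 43 of the 44 members, by a search of their GENCODE 29 transcripts. In DHX32, a protein known for a divergent helicase core, no match was found. The motif reads DEAD in 26 members and DEAH in 8. It reads DEVH in 4 members (DHX29, DHX30, DHX34 and DHX57), DEVD in 2 (DDX21 and DDX50), and DECD in DDX39A, DESD in DDX52 and DEIH in DHX36. The coding windows below are shown 5′ to 3′ on the sense strand, for the members on which the results turn, with the 4 motif codons in capitals and 9 bases on each side.
DDX6: atagtattgGATGAGGCAGATaagttgctg
DDX10: ttagttcttGATGAAGCAGATagaatcttg
DDX43: ttggttttaGATGAAGCAGACaagatgttg
DDX52: cttgtagtaGACGAATCAGATaaactgttt
DDX21: gttgtcctgGATGAAGTGGACcagatgttg
DDX50: gttgtgcttGATGAAGTGGATcagatgtta
DDX5: cttgtccttGATGAAGCAGATagaatgctt
DDX17: cttgtattgGACGAAGCTGACagaatgctt
DDX19A: tttgttctgGATGAGGCTGATgtcatgata
DDX19B: tttgttctgGATGAGGCTGATgtcatgata
DHX36: atcgtacttGATGAAATCCATgaaagaaat
DDX11: gtgatcatcGACGAGGCGCACaacctgatc
The pairs DDX21 and DDX50, DDX5 and DDX17, and DDX19A and DDX19B are paralogs. The DDX19A and DDX19B windows are identical. The reads of close copies can be split between them in counting, so the values of DDX19A and DDX19B are uncertain to that extent. DDX11, with a DEAH motif although its symbol is DDX, is a DNA helicase of sister chromatid cohesion, and its pseudogene DDX12P was not analysed here.

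The libraries held 16692497 to 17889820 counts in shHNRNPC cells and 15563077 to 18328475 counts in shcontrol cells. HNRNPC itself was at 62.3 ± 3.80 CPM (counts scaled to the library total, with TMM factors) in shHNRNPC libraries and at 853 ± 4.76 CPM in shcontrol libraries (SD, n = 3 each), a change of -3.77 on the log2 scale (SE 0.030, adjusted p = 5.04e-55, edgeR quasi-likelihood test). The change across the table was broad: 7228 of 11831 genes tested passed an adjusted p of 0.05, or 61.1%. Of these, 3520 were higher (29.8%) and 3708 were lower (31.3%), with a median log2 fold change of -0.0041 over all genes tested. Of the hepatocyte markers, 7 of 10 were in the table, and their summed level was 0.628 to 1.30 CPM in shHNRNPC libraries and 0.861 to 1.12 CPM in shcontrol libraries, with ALB at 1 count in all 6 libraries together. The epithelial keratins KRT8 and KRT18, with EPCAM, summed to 1554 to 1574 CPM in shHNRNPC libraries and 1358 to 1382 CPM in shcontrol libraries. Nearly all of it was keratin, with EPCAM at 10 counts in all 6 libraries together. The hepatoma marker GPC3, of the same list, was not in the table. The leukocyte list summed to 63.9 to 68.2 CPM in shHNRNPC and 40.9 to 47.5 CPM in shcontrol libraries, nearly all of it CD68. The endothelial list summed to 65.9 to 69.6 CPM in shHNRNPC and 53.8 to 55.6 CPM in shcontrol libraries, nearly all of it EGFL7. The fibroblast list summed to 351 to 355 CPM in shHNRNPC and 430 to 438 CPM in shcontrol libraries, mostly ACTA2. The part of these markers in the results was not tested. Fewer cells of a type and less RNA per cell cannot be told apart in such bulk libraries.

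More helicase genes fell than rose in shHNRNPC cells, and the falls were the larger changes. Of the 43 members tested, 23 were lower (53.5%) and 8 were higher (18.6%), read against 31.3% and 29.8% of all genes tested, and 12 did not pass. With libraries scaled by their size alone the members split into 26 lower and 4 higher, where 35.2% of all genes tested were lower and 25.3% higher. Once transcript GC content and length were fitted as an offset (the GC and length correction), they split into 28 lower and 5 higher, where 34.1% of all genes were lower and 22.9% higher. The median log2 fold change of the 43 was -0.09. A fold change of at least 1.5 was reached by 5 of the 43 members as lower, a share near the 9.12% of all genes tested. None of the higher members reached it (4.90% of all genes tested). Falls were also the larger changes over all genes tested, with 1079 lower and 580 higher at that fold change. The 5 members were DDX52, DDX43, DDX10, DDX6 and DDX21. Tested against a rise of 25% or a fall of 20%, 12 members passed as lower and 0 as higher, where 12.6% of all genes tested passed as lower and 6.47% as higher. The 3 values of each group did not overlap in 33 members (76.7%), against 64.0% of all genes tested. DDX25, a testis helicase, was not tested: it had 2 counts in 1 shHNRNPC library and 0 in every other library.

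**Figure D1:**
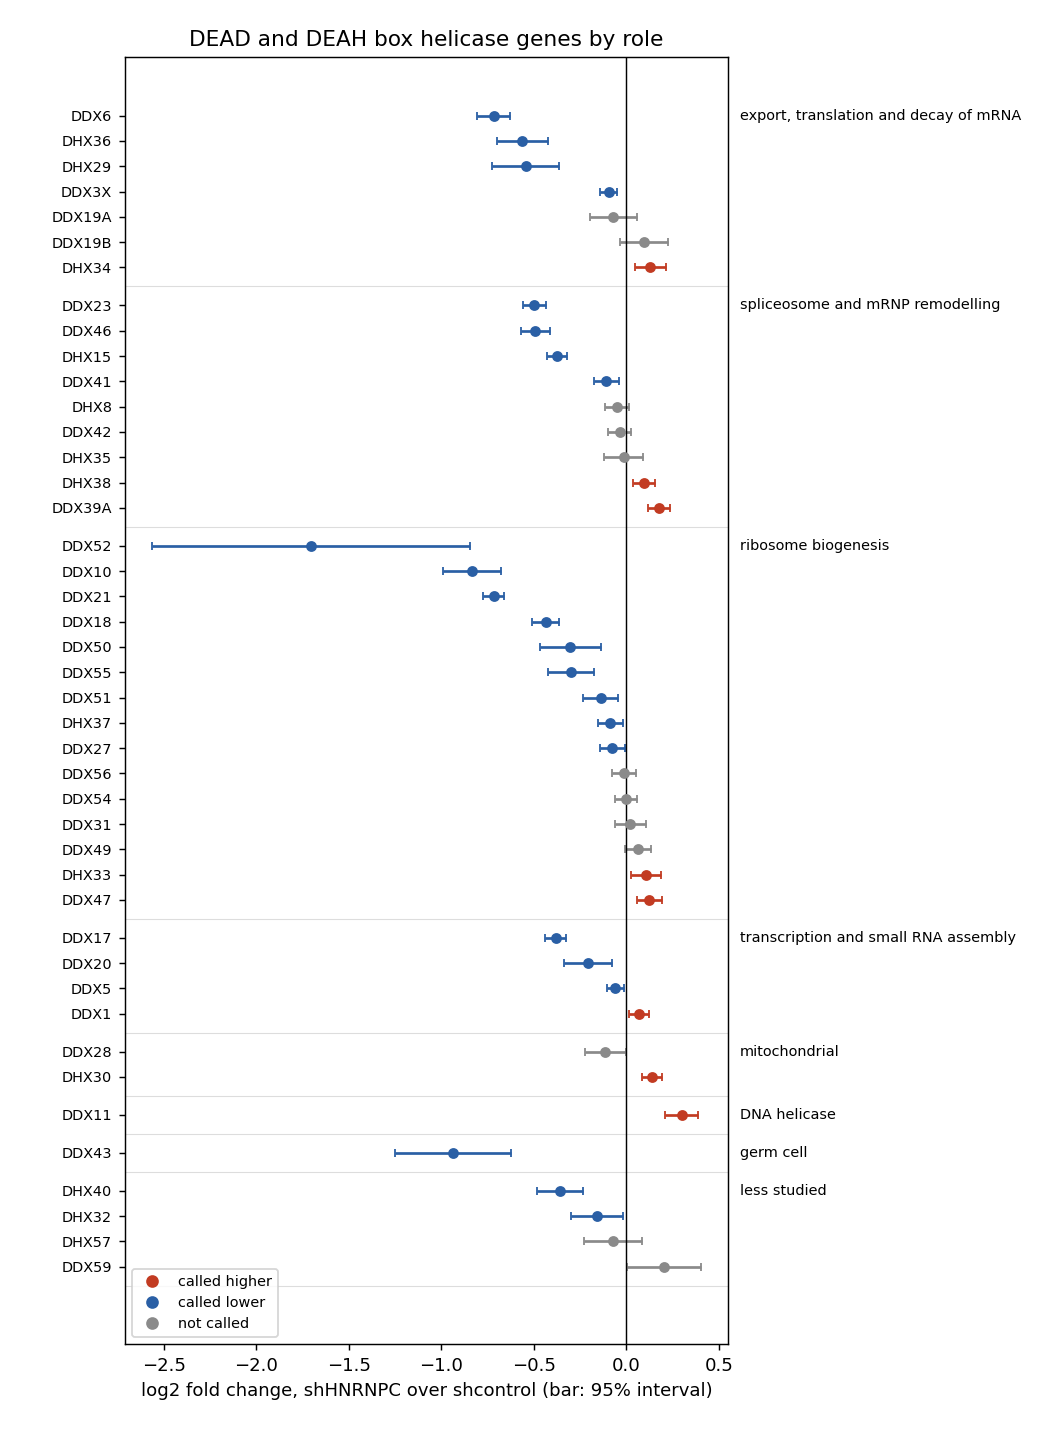
Log2 fold change of shHNRNPC over shcontrol (x axis, negative values are lower in shHNRNPC) for the 43 tested helicase genes, grouped by role, with 95% intervals from the edgeR fit (n = 3 libraries each). The 5 genes at or past 1.5-fold lie to the left, and DDX11 lies farthest to the right at 0.30.

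Summed over the members, the helicases held 0.491 to 0.495% of counts in shHNRNPC libraries and 0.544 to 0.553% of counts in shcontrol libraries. The summed level was 5000.4 ± 29.3 CPM in shHNRNPC and 5422 ± 40.8 CPM in shcontrol libraries (SD, n = 3 each), a difference of -7.77%. The groups did not overlap. DDX21 had the largest single difference, -109 CPM, equal to 25.8% of the net difference. It was followed by DHX15 at -63.2 CPM, DDX17 at -56.8 CPM, DDX23 at -54.4 CPM and DDX6 at -39.9 CPM. DDX39A and DHX30 differed in the other direction, by 25.3 CPM each.

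Among helicases of mRNA export, translation and decay, 4 of 7 fell (DDX6, DHX36, DHX29 and DDX3X) and 1 rose (DHX34), a called share of 71.4% against 61.1% of all genes tested. DDX6 promotes decapping and translational repression and is needed for processing bodies. It lies on chromosome 11 at positions 118747766 to 118791136, minus strand, as the deposited table gives them. DDX6 was at 63.7, 61.5 and 60.7 CPM in the 3 shHNRNPC libraries, against 95.7, 107.7 and 102.1 CPM in the 3 shcontrol libraries. All 3 shHNRNPC values lay below all 3 shcontrol values. It was 1.64-fold lower, a change of -0.72 on the log2 scale (SE 0.044, adjusted p = 6.71e-19, edgeR quasi-likelihood test), and -0.41 after the GC and length correction.

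DHX36, which unwinds G-quadruplexes in RNA and DNA, was at 22.7 ± 1.33 CPM in shHNRNPC and 33.5 ± 2.34 CPM in shcontrol libraries, a change of -0.56 on the log2 scale (SE 0.069, adjusted p = 1.75e-09). With the offset for GC content and length its fold change was -0.20, more than 1.5 times smaller. DHX29, which helps the small ribosomal subunit to scan structured leaders, was at 12.6 ± 1.43 CPM in shHNRNPC and 18.3 ± 0.094 CPM in shcontrol libraries, a change of -0.54 on the log2 scale (SE 0.090, adjusted p = 1.18e-06). That of DHX29 was -0.30 after the same correction.

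DDX3X, a translation initiation helicase and one of the most abundant members, was at 369.4, 367.5 and 362.9 CPM in shHNRNPC libraries, against 385.6, 392.1 and 397.2 CPM in shcontrol libraries. The groups did not overlap, and the log2 fold change was small at -0.10 (SE 0.024, adjusted p = 4.95e-04). With the offset for GC content and length its direction turned, to 0.15 (edgeR adjusted p of 1.05e-07). DHX34, a factor of nonsense-mediated decay, was at 79.0 ± 0.842 CPM in shHNRNPC and 72.2 ± 1.01 CPM in shcontrol libraries, a log2 fold change of 0.13 that was 0.01 and did not pass after the correction.

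DDX19A and DDX19B, paralogs at the cytoplasmic face of the nuclear pore, did not pass. DDX19A was at 39.2, 40.2 and 38.4 CPM in shHNRNPC libraries, against 46.4, 40.7 and 36.8 CPM in shcontrol libraries. DDX19B was at 30.7, 30.8 and 31.1 CPM in shHNRNPC libraries, against 27.4, 29.5 and 29.8 CPM in shcontrol libraries. DDX19A values overlapped between groups, and those of DDX19B did not. Without the shcontrol library at 36.8 CPM, DDX19A passed as lower (adjusted p = 0.045), and it also did with the offset for GC content and length, at -0.22 (edgeR adjusted p = 0.0017). Of their exon bases, 26.9% and 19.7% are shared with other genes, mainly the readthrough gene AC012184.2 on the same strand. Whether the counting used strand is not given in the sources used here, and strand could not separate reads shared with that gene.

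**Figure D2:**
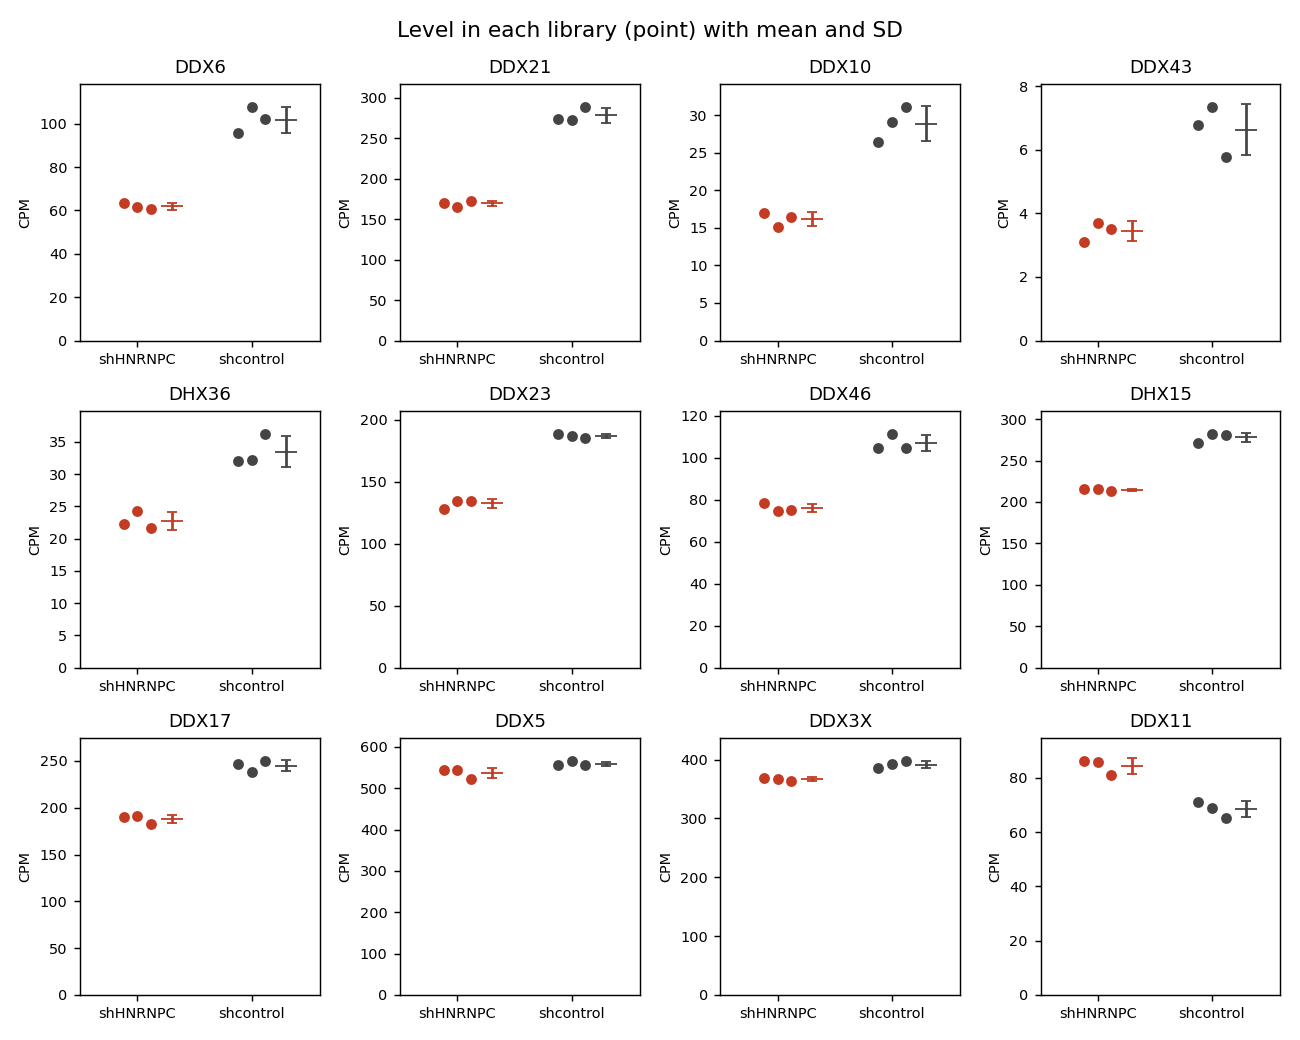
Level in CPM (y axes start at 0) of 12 helicase genes in each shHNRNPC library and each shcontrol library, with the mean and SD beside the points (n = 3 each). The panels run from DDX6 (61.9 and 101.8 CPM on average) to DDX11 (84.2 and 68.5 CPM). All 12 genes were chosen from the called members, and members with overlapping groups are not shown. The groups did not overlap in 76.7% of tested members and in 64.0% of all genes tested.

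Of the 9 helicases of the spliceosome and of mRNP remodelling, 4 fell and 2 rose, a called share of 66.7% that is close to the 61.1% of all genes tested. DDX23, which swaps small nuclear RNAs at the 5′ splice site, was at 132.5 ± 3.79 CPM in shHNRNPC and 187.0 ± 1.39 CPM in shcontrol libraries, a change of -0.50 on the log2 scale (SE 0.031, adjusted p = 2.27e-18). It has a GC content of 52.9%, and its fold change was -0.64 after the correction. DDX46, which acts at the branch site, was at 76.0 ± 2.12 CPM in shHNRNPC and 106.8 ± 3.75 CPM in shcontrol libraries, a change of -0.49 on the log2 scale (SE 0.040, adjusted p = 1.23e-14). That value was -0.15 after the correction.

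DHX15, the helicase that takes spliceosomes apart and also works in the nucleolus, was at 215.2, 215.3 and 213.6 CPM in shHNRNPC libraries, against 271.3, 281.8 and 280.5 CPM in shcontrol libraries. The shHNRNPC libraries lay close together and all below the shcontrol ones. Its log2 fold change was -0.37 (SE 0.027, adjusted p = 1.86e-16, edgeR quasi-likelihood test). DDX41, mutated in inherited myeloid neoplasms, had a log2 fold change of -0.11. DHX38, of the second splicing step, rose by a log2 fold change of 0.10. DDX39A, an export helicase, rose by 0.18 (SE 0.029, adjusted p = 6.08e-07), and was at -0.05 without passing after the GC and length correction. DHX8, which frees the spliced mRNA, DDX42 of the branch site complex, and DHX35 were at log2 fold changes of -0.05, -0.04 and -0.01 without passing. With the offset these 3 passed as lower, at -0.08, -0.08 and -0.12. The close relative DDX39B was not analysed here.

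Helicases of ribosome biogenesis formed the most numerous group, and 9 of 15 fell while 2 rose (73.3% called, against 61.1%), where 31.3% of all genes tested fell and 29.8% rose. DDX21, of ribosomal RNA transcription and processing, lies on chromosome 10 at positions 68956440 to 68985067 on the plus strand. DDX21 was at 170.0, 165.4 and 172.4 CPM in shHNRNPC libraries, against 273.9, 271.8 and 288.3 CPM in shcontrol libraries. No shHNRNPC library came near a shcontrol one. It was 1.64-fold lower, a change of -0.72 on the log2 scale (SE 0.029, adjusted p = 1.54e-25, edgeR quasi-likelihood test), and -0.48 after the correction.

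DDX10, a factor of the small subunit processome, lies on chromosome 11 at positions 108665025 to 108940930 on the plus strand. DDX10 was at 17.0, 15.2 and 16.5 CPM in shHNRNPC libraries, against 26.4, 29.1 and 31.1 CPM in shcontrol libraries. The groups stood apart, with a 1.78-fold lower level and a change of -0.84 on the log2 scale (SE 0.078, adjusted p = 6.64e-13, edgeR quasi-likelihood test), or -0.52 after the correction. DDX52, whose yeast counterpart acts in small subunit assembly, had the largest fold change but rested on few reads: 4, 9 and 4 counts in shHNRNPC libraries, against 19, 16 and 21 counts in shcontrol libraries. The counts did not overlap, and the log2 fold change was -1.70 (SE 0.43, adjusted p = 5.82e-04). DDX52 lies on chromosome 17 at positions 37609778 to 37643464 on the minus strand.

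DDX18, a large subunit factor, fell by 0.44 on the log2 scale, and by 0.20 after the correction. DDX50, the paralog of DDX21, was at 20.4, 19.3 and 21.3 CPM in shHNRNPC libraries, against 22.1, 23.9 and 29.1 CPM in shcontrol libraries. The highest shHNRNPC value lay just under the lowest shcontrol value, and the log2 fold change was -0.30 (SE 0.082, adjusted p = 0.0013). That call was lost when the highest shcontrol library was left out, with an adjusted p of 0.075 in the edgeR test. DDX55 also fell, at -0.30.

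DDX51, DHX37 and DDX27 fell slightly, at log2 fold changes of -0.14, -0.09 and -0.07, and DHX33 rose by 0.11. These calls depended on which libraries entered: leaving out 1 library at a time lost DDX27 in 4 of 6 fits, DHX37 in 3, DDX51 in 2 and DHX33 in 2, with adjusted p up to 0.41, 0.16, 0.068 and 0.12. DDX27 values overlapped between groups. DDX47, which also rose by 0.12, shares 36.5% of its exon bases with APOLD1 on the same strand. DDX56, DDX54, DDX31 and DDX49, assembly factors by their yeast counterparts, did not pass, at log2 fold changes between -0.01 and 0.07. DDX49 passed as higher without either of 2 shHNRNPC libraries (adjusted p = 0.040 and 0.048). With the offset it passed as lower, at -0.16 (edgeR adjusted p = 1.28e-05), as did DDX56 at -0.21 and DDX54 at -0.11.

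In transcription and small RNA assembly, with 4 members tested, DDX17, DDX20 and DDX5 fell (75%) and DDX1 rose (25%). Of all genes tested, 31.3% fell and 29.8% rose. DDX5 and DDX17 are paralogous coregulators of transcription, splicing and microRNA processing. DDX5, the most abundant member, was at 544.6, 543.8 and 521.5 CPM in shHNRNPC libraries, against 555.3, 565.1 and 556.9 CPM in shcontrol libraries. The groups were close and did not overlap, with a change of -0.06 on the log2 scale (SE 0.022, adjusted p = 0.020). The call was lost in 2 of the 6 leave-one-out fits, without the shHNRNPC library at 521.5 CPM (adjusted p = 0.14) and without the shcontrol library at 565.1 CPM (adjusted p = 0.068). DDX17 was at 190.1, 191.4 and 182.9 CPM in shHNRNPC libraries, against 246.8, 238.3 and 249.6 CPM in shcontrol libraries. They stood well apart, with a change of -0.38 on the log2 scale (SE 0.029, adjusted p = 7.77e-16, edgeR quasi-likelihood test).

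DDX20, the Gemin3 subunit of the SMN complex, was at 29.2 ± 2.54 CPM in shHNRNPC and 33.7 ± 0.768 CPM in shcontrol libraries, a log2 fold change of -0.21. With the offset it stood at 0.14 and did not pass, and without 1 shHNRNPC library its adjusted p was 0.056. DDX1, a subunit of the tRNA ligase complex, was at 248.1, 246.5 and 238.4 CPM in shHNRNPC libraries, against 231.9, 230.2 and 236.2 CPM in shcontrol libraries. The groups did not overlap, but the log2 fold change was 0.07 (SE 0.027, adjusted p = 0.025) and the call was lost in 4 of the 6 leave-one-out fits, with adjusted p up to 0.12.

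The remaining members fell under other headings. DHX30, which works in mitochondrial RNA granules, was at 274.2, 284.2 and 273.7 CPM in shHNRNPC libraries, against 256.2, 244.5 and 255.6 CPM in shcontrol libraries. The groups did not overlap, at 0.14 on the log2 scale (SE 0.027, adjusted p = 2.07e-05). With the offset for GC content and length DHX30 stood at 0.01 and did not pass. DDX28, a mitochondrial ribosome assembly factor, did not pass at -0.11 but passed as lower with the offset, at -0.32 (edgeR adjusted p = 5.26e-07), and 22.5% of its exon bases are shared with DUS2 on the opposite strand. DDX11 had the largest rise among members, at 84.2 ± 2.93 CPM in shHNRNPC and 68.5 ± 2.97 CPM in shcontrol libraries, a 1.23-fold higher level (log2 fold change 0.30, SE 0.044, adjusted p = 7.83e-08, edgeR quasi-likelihood test). Whether reads of its pseudogene DDX12P entered these counts was not tested.

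DDX43, a cancer-testis antigen, lies on chromosome 6 at positions 73394748 to 73417569 on the plus strand. DDX43 was at 3.10, 3.71 and 3.51 CPM in shHNRNPC libraries, against 6.76, 7.34 and 5.76 CPM in shcontrol libraries. The groups did not overlap, with a 1.91-fold lower level and a change of -0.93 on the log2 scale (SE 0.16, adjusted p = 1.28e-06). Of its exon bases, 20.2% are shared with other genes. The germ cell markers in the table, MAEL and SYCP3, summed to 0 to 0.170 CPM in shHNRNPC and 0 to 0.0588 CPM in shcontrol libraries. Among the less studied members, DHX40 and DHX32 fell, at -0.36 and -0.16 (the call of DHX32 was lost in 4 of 6 leave-one-out fits), and DHX57 and DDX59 did not pass, at -0.07 and 0.20. Without the shHNRNPC library at 12.2 CPM, DDX59 passed as higher (adjusted p = 0.048).

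The balance within paralog pairs was compared as a log2 ratio of counts in each library, which does not depend on scaling. The ratio of DDX5 to DDX17 was 1.51 ± 0.0060 in shHNRNPC and 1.19 ± 0.048 in shcontrol libraries, a difference of 0.32. That of DDX21 to DDX50 was 3.06 ± 0.043 in shHNRNPC and 3.48 ± 0.16 in shcontrol libraries, a difference of -0.43. In both pairs the groups did not overlap, with p = 0.1 by a two-sided exact permutation test, the smallest that 3 against 3 libraries allow, and p = 0.15 adjusted over the 3 pairs. The DDX19A to DDX19B ratio was 0.35 ± 0.042 in shHNRNPC and 0.51 ± 0.23 in shcontrol libraries, with overlapping groups (exact permutation p = 0.3).

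Levels of different genes were put in order per kilobase of the transcript with the longest coding reading frame. That transcript need not be the longest coding transcript, which was used for GC content. DDX5 led in both groups, at 210.1 ± 5.13 CPM per kb in shHNRNPC and 219 ± 2.06 CPM per kb in shcontrol libraries. DDX39A followed at 148 ± 1.84 CPM per kb in shHNRNPC and 131 ± 3.08 CPM per kb in shcontrol libraries, and then DDX3X at 113 ± 1.03 CPM per kb in shHNRNPC and 121 ± 1.80 CPM per kb in shcontrol libraries. The gaps between these 3 neighbours exceeded their spread between libraries in both groups. That spread does not cover the choice of transcript, and another transcript length could change the order. Farther down, DDX6 ranked 32 of 43 in shHNRNPC and 25 in shcontrol libraries, DDX21 ranked 17 and 11, and DDX46 ranked 29 and 22. DHX29, DDX43 and DDX52 were the 3 lowest in both groups.

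**Figure D3:**
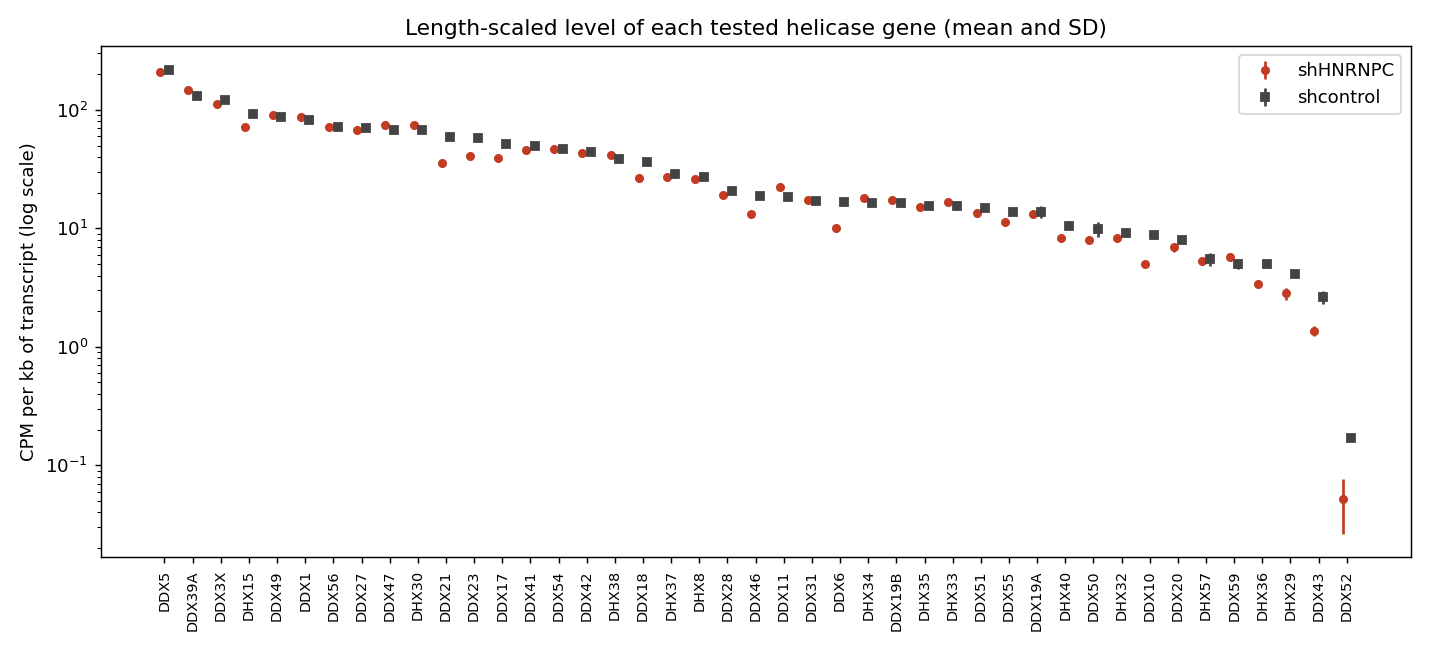
Mean level per kilobase of transcript (y axis, CPM per kb, log scale) of the 43 tested helicase genes in shHNRNPC (circles) and shcontrol (squares) libraries, ordered by the shcontrol level, with SD bars (n = 3 each). The 3 leading genes are the same in both groups, and DDX21, DDX6 and DDX10 lie visibly lower in shHNRNPC libraries.

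Across members, the fold change moved with the base composition of the transcript. Over the 43 tested members the Spearman correlation of log2 fold change with GC content was 0.65, and over 11813 tested genes with a coding transcript it was 0.43. Both are descriptions across genes that share the same 6 libraries. Median GC content was 41.9% in the 23 lower members, 56.9% in the 8 higher members and 50.6% in the 12 that did not pass. Below the median GC content of all genes, 48.4%, 18 of 22 members were lower (81.8%) and 2 were higher (9.09%), where 46.5% of all genes in that range were lower and 17.6% higher. At or above it, 5 of 21 members were lower (23.8%) and 6 were higher (28.6%), where 16.2% of all genes in that range were lower and 41.9% higher. The correlation with transcript length was -0.32 in both sets.

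With GC content and length fitted as an offset for each library, 20 of the 23 lower members and 4 of the 8 higher members kept their calls. Of the 12 members that had not passed, 8 were then lower (DDX28, DDX19A, DDX56, DDX49, DHX35, DDX54, DDX42 and DHX8). DDX3X was then higher, and DDX20 and DDX39A changed sign without passing. DHX38, at 0.0035, DHX34, DHX30 and the lower member DHX32, at -0.03, no longer passed. DDX11 was then at 0.17 and DHX40 at -0.16, both still called, while DDX41, DDX27, DHX37 and DDX51 were further from 0, at -0.30, -0.24, -0.20 and -0.23. The offset is estimated from the same libraries and can absorb a difference between the groups that runs along GC content. Whether the relation with GC content arises in the cells or in the libraries was not tested.

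**Figure D4:**
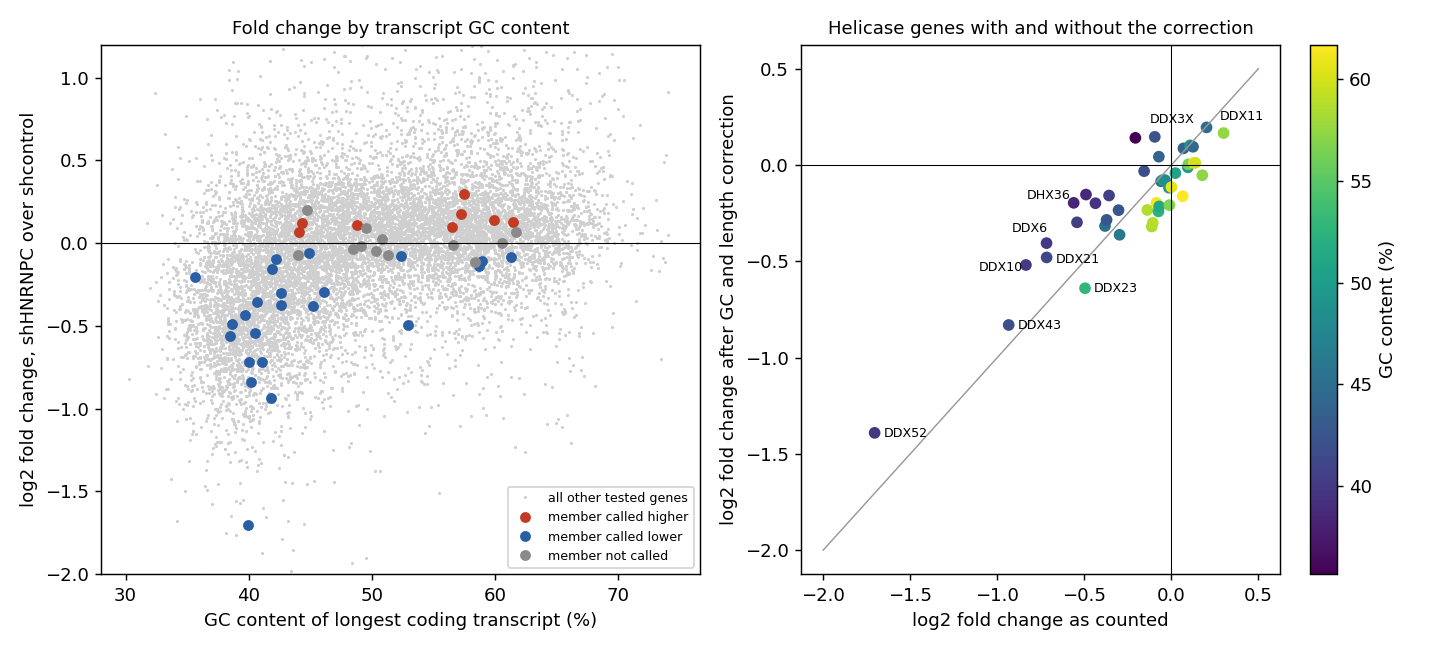
Left, log2 fold change of shHNRNPC over shcontrol (y axis, limited to -2 to 1.2, so that the most changed other genes lie outside) against GC content of the longest coding transcript (x axis, percent), with helicase genes in colour by call and other tested genes in grey. Right, log2 fold change of each helicase gene after the GC and length correction (y axis) against the fold change as counted (x axis), coloured by GC content, where DDX6, DDX10 and DDX21 stay below 0 and DDX3X crosses it.

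Genes that work with these helicases were read from 7 lists of partners, with 96 genes tested, 42 lower (43.8%) and 23 higher (23.96%), where 31.3% of all genes tested were lower and 29.8% higher. Each list is read against those 2 shares. Listed genes in the table but too low to be tested were FBL, NOP2, SARNP, SMN1, SKIV2L and TDRD9. The highest of them, NOP2, had a mean of 0.26 CPM over all 6 libraries. The shares leave these genes out, and why they were so low was not tested. Of 26 nucleolar processome factors, 17 fell (65.4%) and 5 rose (19.2%), among them PDCD11 (log2 fold change -0.64), BMS1 (-0.87) and NOP58 (-0.68), all needed for ribosomal RNA maturation. BMS1 was at 28.9 ± 1.06 CPM in shHNRNPC and 53.0 ± 3.44 CPM in shcontrol libraries. Of 13 partners of DDX6 in decapping and processing bodies, 5 fell (38.5%) and 4 rose (30.8%), near the shares of all genes, and 2 rose with the GC and length correction. The exonuclease XRN1 was at 10.6 ± 0.832 CPM in shHNRNPC and 21.1 ± 1.32 CPM in shcontrol libraries (log2 fold change -1.001), the decapping enzyme DCP2 fell by 0.65 and ATXN2 by 0.53 on the log2 scale.

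Of 13 genes of the TREX complex and mRNA export, 5 fell (38.5%) and 3 rose (23.1%), also near the shares of all genes. THOC2, the scaffold of THO, was at 28.5 ± 3.12 CPM in shHNRNPC and 57.0 ± 1.08 CPM in shcontrol libraries (log2 fold change -1.004). The adaptor ALYREF fell by 0.34 on the log2 scale, while GLE1, which activates the DDX19 helicases at the pore, rose by 0.33. Of 18 partners of spliceosomal DEAH helicases, 7 fell (38.9%) and 4 rose (22.2%), a called share of 61.1% that equals that of all genes, with SLU7 at -0.57, CWC22 at -0.73 and NKRF at -0.41. In the SMN complex of DDX20, 3 of 7 rose (42.9%) and 0 fell by the edgeR test: GEMIN7 (0.31), GEMIN6 (0.30) and GEMIN4 (0.11). In the tRNA ligase complex of DDX1, 2 of 6 fell (33.3%, near the share of all genes), FAM98A and FAM98B, both at -0.33. None rose in the edgeR fit as reported, but 2 did with the GC and length correction, and 1 did with upper quartile scaling or without 1 shHNRNPC library.

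Among 13 RNA helicases with other symbols, 6 fell (46.2%) and 4 rose (30.8%). MOV10, an antiviral and RNA decay helicase, was at 228 ± 5.55 CPM in shHNRNPC and 136 ± 2.51 CPM in shcontrol libraries (log2 fold change 0.75), and the interferon-inducible HELZ2 rose by 0.56. YTHDC2, a helicase that reads methylated adenosine, fell by 0.71 on the log2 scale.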

How the data were processed

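RNA was extracted with Trizol and libraries were made with the NEBNext Ultra kit, per the labels' protocols. Tools listed in the submitters' processing notes are STAR, HTSeq 0.6.0 and DESeq2. Of the build, the annotation and the strand setting, none is stated: each is not given in the sources used here. A design text in the series record names a microarray, while the authors deposited unnormalised counts, in whole numbers. The log2 fold changes and p-values in the authors' deposited table were used as a comparison only: there 7 members were higher and 20 lower, and the largest difference of a member's log2 fold change from the present fit was 0.0184. Another 24 columns of per-library values were not used. Columns were assigned to groups by name, and their suffixes, shared between groups, are not tied by the labels to a replicate number.

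In R 4.3.3, edgeR 4.0.16 (filterByExpr, TMM, glmQLFit and glmQLFTest) was fitted on all genes, with Benjamini-Hochberg adjustment over 11831 genes and a threshold of 0.05; limma 3.58.1 and DESeq2 1.42.0 gave alternatives. The script was tested on simulated data. Standard errors were derived from each gene's F statistic. Libraries of 1 group differed by 1.57 to 2.55 chi-square units per gene and libraries of different groups by 30.8 to 35.3. Neither range can show whether libraries of 1 group came from separate cultures. Each library entered the fit as its own sample. GENCODE 29 (GRCh38) gave transcript sequence, length, GC content and exon overlap, and all 44 members' deposited positions overlap the gene of that name there. The longest coding transcript, used for GC content and the correction, need not be the one expressed. Nor need the transcript with the longest reading frame, used for motif II and for levels per kilobase. The members and the partner lists were chosen with earlier results of these data known. Values in each library were given for members past the threshold with a fold change of at least 1.5, the 5 most abundant by CPM and paralogs of at least 5 CPM; from each partner list up to 3 genes with the smallest adjusted p were named.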

Additional observations from a re-analysis of the deposited data

How the results depend on the processing

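The members were refitted under 14 alternatives besides a test against a minimum change (a rise of 25% or a fall of 20%). Of the 23 lower members 15 kept their call in every alternative fit, and of the 8 higher members DDX47 and DDX11 did. Against that minimum 12 members passed as lower and 0 as higher, and 22 of the 65 called partner genes passed. Of all 11831 genes tested, 7228 were called as reported, and against the minimum 1488 passed as lower (12.6%) and 766 as higher (6.47%). The median log2 fold change of the members, -0.09 as reported, was -0.071 with upper quartile scaling, -0.13 with library size alone and -0.16 with the GC and length correction. Over all genes the median, -0.0041 as reported, moved the same way, to 0.011, -0.044 and -0.050. Higher members numbered 4 with library size alone and 5 with the correction. Leaving out each library in turn gave 6 to 8 higher and 19 to 22 lower members, a median between -0.11 and -0.083, and 9 members lost their call without some library (DDX1, DDX5, DDX20, DDX27, DDX50, DDX51, DHX32, DHX33 and DHX37). The GC and length correction reversed the sign of DDX20 (0.14), DDX39A (-0.053), DDX3X (0.15), DDX49 (-0.16) and DDX54 (-0.11), and of the partner genes EIF4A3 (-0.024), POLDIP3 (-0.13), NXT1 (-0.13), EDC3 (-0.0085), RTCB (-0.12), C2orf49 (0.20), GPKOW (-0.14), SUGP1 (-0.061), UTP6 (0.0046), IMP4 (-0.16), PES1 (-0.12) and WDR12 (0.29). The cause was not tested. Genes of the TREX list called higher numbered 5 in place of 3 with RLE and upper quartile scaling and with a minimum mean of 1 CPM. With the GC and length correction higher calls numbered 2 in place of 0 in the tRNA ligase list, 2 in place of 4 among DDX6 partners and 3 in place of 5 in the processome list. DDX52 was not tested with a minimum mean of 1 CPM. DESeq2 called 8 members higher and 19 lower, and limma voom 8 and 22. Over all genes DESeq2 called 3129 higher and 3242 lower, and limma voom 3522 and 3696. Column suffixes are shared between the groups, but the labels do not tie them to a replicate number. Deviations of same-suffix libraries from their group means correlated at -0.041, 0.0084 and -0.043 over 11831 genes. Those of libraries with different suffixes correlated at -0.016 to 0.058. With 3 libraries a group, these values cannot show whether a suffix marks a shared culture or preparation. A replicate block by suffix, chosen after seeing the data, gave 8 higher and 23 lower members, changed no member's call and called 64 partner genes in place of 65. Among members DDX25 and DDX52 had the fewest counts, and why these were low was not tested.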
